A study of Rattus norvegicus with 6 samples.

Results

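The axon guidance ligands and receptors of the rat dorsal root ganglion (DRG) were examined after nerve injury. They were taken by name as the semaphorins of classes 3 to 7, plexins, neuropilins, ephrins, Eph receptors, Slits, Robos, netrins, netrin-Gs, Dcc, the Unc5 receptors and the Flrt proteins, where the gene was listed in at least 3 of the 6 libraries. This gave 61 genes, 37 of them ligands and 24 receptors, out of 14346 genes listed in any library. The naming rule itself uses no difference between groups, though the set was proposed with earlier results of these data known and 1 gene, Epha3, met the listing rule through pSNL libraries alone. RNA was sequenced from DRG of Rattus norvegicus 7 days after a sham operation (3 libraries) or after partial sciatic nerve ligation (pSNL, 3 libraries), an operation that ties off part of the sciatic nerve and leaves injured and spared fibres in the same nerve. The labels name no genotype, strain, sex, age, ganglion level or side, and they do not say whether a library is 1 animal or a pool. Each p-value below is thus set by how far libraries of a group differ, and that spread may be technical.

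Axon guidance proteins steer growing axons by attraction and repulsion during development, and many are still made in adult neurons and glia. Semaphorins act through plexins, and most secreted class 3 semaphorins also need neuropilins as the binding part of the receptor, while Sema3e can bind Plxnd1 directly. Slits bind Robo receptors, netrins bind Dcc and Unc5 receptors, and ephrins bind Eph receptor tyrosine kinases on neighbouring cells. Flrt proteins are membrane ligands of Unc5 receptors and of latrophilins. In the DRG these molecules are known for sorting sensory axons on their way to skin, muscle and spinal cord.

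Of the 74 symbols in the RefSeq gene table that fit the naming rule, 10 (Efna3, Epha6, Epha8, Ephb4, Plxna1, Plxna4, Plxnc1, Plxnb1, Robo4 and Sema6a) were listed in no library and so could not be analysed. A further 3 were listed in only 1 or 2 libraries and so stayed outside. Dcc had 2 counts in sham replicate 1 and 3 counts in sham replicate 3, and Unc5d and Sema3a each had 1 count in 1 library of each group. Epha3, just inside, had 4, 5 and 3 counts in pSNL replicates 1 to 3 and none in sham. Of the 61 genes, 52 passed the filter on low counts and were tested (31 ligands and 21 receptors). The 9 that did not pass were Epha1, Epha3, Efna2, Efna4, Efnb3, Ntn1, Ntn5, Robo3 and Flrt2.

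The libraries held 4310643 to 4416121 estimated counts and listed 13135 to 13343 genes each, so 1 CPM (a read count normalised to library size, here with TMM factors) was about 4.36 counts. The labelled tissue was checked with markers. A set of 11 sensory neuron markers summed to 26813 to 36251 CPM over the libraries, and most of each sum came from the neurofilament genes Nefh and Nefl. For the 6 injury genes that served to check the labels, every pSNL library exceeded every sham library (11.1% of all genes tested). The first of these, Atf3, a transcription factor induced by axotomy, was at 11.5, 15.8 and 22.8 CPM in sham replicates 1 to 3 and at 97.6, 294 and 234 CPM in pSNL replicates 1 to 3. Sham replicate 3 stood apart. Its 12 markers of central glia and spinal cord summed to 1790 CPM, against 130.04 to 197 CPM in the other 5 libraries, with Neurod1 at 0 in sham replicate 3. The skeletal muscle markers summed to 795 CPM in sham replicate 3 and 1359 CPM in pSNL replicate 3, against 163 to 248 CPM in the others.

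The 250 bases before the annotated start of 4 of these genes are shown, because Flrt3, Sema3c, Sema4f and Sema7a were the ones that passed the threshold in at least 1 alternative analysis below, which was known when they were chosen. The sequences are from RefSeq on GRCr8, which held a promoter for 50 of the 61 genes, and they are written 5′ to 3′ on the strand of the gene. They lie at chr3:148461406-148461655 on the minus strand (Flrt3), chr4:18699628-18699877 on the minus strand (Sema3c), chr4:116995443-116995692 on the minus strand (Sema4f) and chr8:67244068-67244317 on the plus strand (Sema7a). Capitals mark matches, on either strand, to any of 7 searched motifs.
Flrt3: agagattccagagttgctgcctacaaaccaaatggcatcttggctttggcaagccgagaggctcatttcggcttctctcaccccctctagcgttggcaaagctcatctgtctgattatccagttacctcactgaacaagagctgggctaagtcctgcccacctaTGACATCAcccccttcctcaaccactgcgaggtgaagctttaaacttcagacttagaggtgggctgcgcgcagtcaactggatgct
Sema3c: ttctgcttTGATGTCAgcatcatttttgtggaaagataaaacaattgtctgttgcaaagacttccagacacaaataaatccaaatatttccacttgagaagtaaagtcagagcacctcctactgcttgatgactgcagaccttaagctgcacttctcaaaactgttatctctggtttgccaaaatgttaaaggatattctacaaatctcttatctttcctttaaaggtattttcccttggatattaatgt
Sema4f: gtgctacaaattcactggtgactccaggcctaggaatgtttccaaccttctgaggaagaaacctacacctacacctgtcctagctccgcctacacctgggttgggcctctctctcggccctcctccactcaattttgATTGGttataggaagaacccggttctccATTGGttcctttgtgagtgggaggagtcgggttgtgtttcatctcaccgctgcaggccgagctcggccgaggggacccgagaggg
Sema7a: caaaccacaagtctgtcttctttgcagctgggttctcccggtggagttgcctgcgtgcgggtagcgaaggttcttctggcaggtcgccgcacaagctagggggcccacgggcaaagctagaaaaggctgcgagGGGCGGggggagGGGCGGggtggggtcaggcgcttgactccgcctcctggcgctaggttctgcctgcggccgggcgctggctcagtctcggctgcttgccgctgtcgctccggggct

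The capitals in Flrt3 (86 to 79 bases before the start) and in Sema3c (242 to 235 bases before it) match TGACNTCA, a loosened form of the cAMP response element TGACGTCA that was added after the exact form had been searched and that includes it. Those in Sema4f are CCAAT boxes read on the opposite strand, and those in Sema7a are GC boxes (GGGCGG). Among all 27457 promoters of this length, 8.8% held TGACNTCA, 34.29% held CCAAT and 32.39% held GGGCGG. Among the 50 axon guidance promoters the shares were 8.0%, 32.0% and 48.0%. The AP-1 motif TGANTCA was in 2.0% of the 50 and 6.36% of all, the exact TGACGTCA in 2.0% and 1.7%, the STAT motif TTCNNNGAA in 2.0% and 7.52%, and the TATA motif TATAAA in 0.0% and 13.09%. The median GC content of all promoters was 52% and that of the 50 was 60.2%. These matches describe the letters of the windows only.

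Levels were compared between genes by the authors' FPKM, which is per length. The 61 genes spanned a mean over the 6 libraries of 0.148 FPKM (Epha3) to 218 FPKM (Sema3b), with a median of 5.53 FPKM, against 9.57 FPKM for all genes listed in at least 3 libraries. The secreted Sema3b was at 198 ± 41.1 FPKM in sham and 238 ± 43.5 FPKM in pSNL (SD, n = 3 each) and made up 75.85% to 84.77% of the class 3 semaphorin FPKM in each library. It was followed by the membrane-anchored Sema7a at 86.5 FPKM, the netrin-G Ntng2 at 50.1 FPKM, Sema4f at 36.9 FPKM, Sema3g at 31.7 FPKM and Sema4c at 25.3 FPKM. The receptors were lower, with Plxnd1 (17 FPKM), Ephb6 (16.7 FPKM) and Robo2 (13.7 FPKM) among the highest. Summed over all ligands, the level was 671.08, 682.9 and 575.5 FPKM in sham replicates 1 to 3 and 655.64, 753.93 and 714.04 FPKM in pSNL replicates 1 to 3. The receptors summed to 117.13, 125.41 and 131.21 FPKM in sham and 149.75, 133.89 and 119.01 FPKM in pSNL. Both sums overlapped between the groups.

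**Figure D1:**
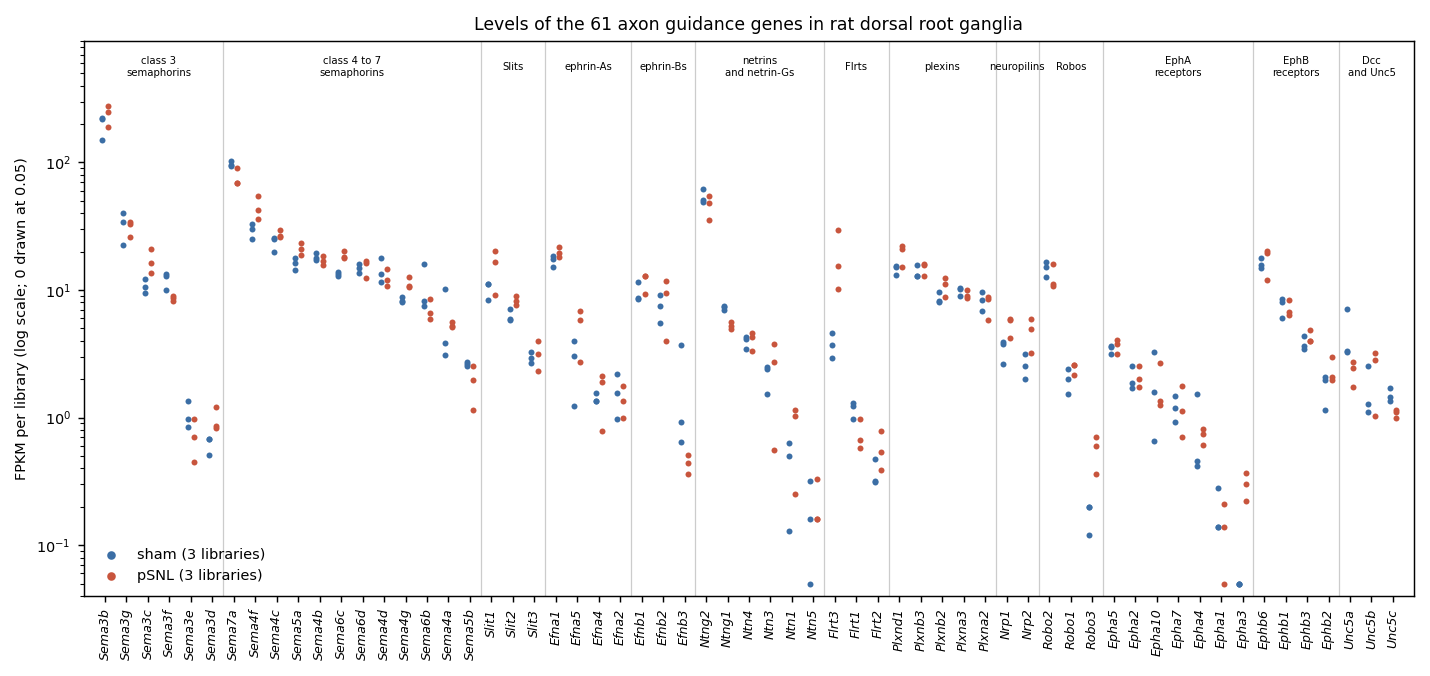
Level of each of the 61 axon guidance genes in each library, as the authors' FPKM on a log axis, ordered by family; points are single libraries, coloured by group. Sema3b is the highest at a mean of 218 FPKM and Epha3, listed in pSNL libraries only, is the lowest at 0.148 FPKM.

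The comparison of pSNL with sham asks which of these genes differ in the ganglion after peripheral nerve injury. Among the 52 tested genes Flrt3 had the largest difference, 4.88-fold higher in pSNL, and several semaphorins, Slit2 and both neuropilins were higher in every pSNL library than in every sham library, while Ntng1, Sema3f, Sema7a, Unc5a and Unc5c were lower in every one. None of the 52 tested genes passed an adjusted p of 0.05 in edgeR's quasi-likelihood test with Benjamini-Hochberg adjustment over all 11091 tested genes, where 0.46% of all genes passed (0.442% higher and 0.018% lower in pSNL). At an unadjusted p under 0.05 there were 16 of the 52 (30.8%; 11 higher and 5 lower in pSNL), against 15.5% of all genes (9.41% higher and 6.07% lower). DESeq2, run as an alternative, called 3 of them (Flrt3, Sema3c and Sema4f), against 3.02% of all genes. In bulk ganglia, fewer cells of a type and less RNA per cell cannot be told apart.

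The groups did not overlap for 18 of the 52 genes (34.6%), against 21.5% of all genes tested. With 1 library left out there were 20 to 31 (38.5% to 59.6%, the highest without pSNL replicate 3), against 28.3% to 35.6% of all. Fewer libraries make an overlap less likely by construction. Of the 18, 11 were higher in pSNL (Flrt3, Sema3c, Sema3d, Sema4c, Sema4f, Sema4g, Sema5a, Sema6c, Slit2, Nrp1 and Nrp2; 11.1% of all genes) and 7 were lower (Unc5a, Unc5c, Flrt1, Sema3f, Sema5b, Sema7a and Ntng1; 10.4% of all genes). Among the 31 tested ligands 9 were higher and 5 lower, and among the 21 tested receptors 2 were higher and 2 lower. None of the 9 tested Eph receptors and none of the 4 tested ephrins was among the 18. The median log2 fold change of the 52 genes was 0.09 and that of all tested genes was -0.0024, and 31 of the 52 (59.6%) had a positive value, against 49.4% of all.

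**Figure D2:**
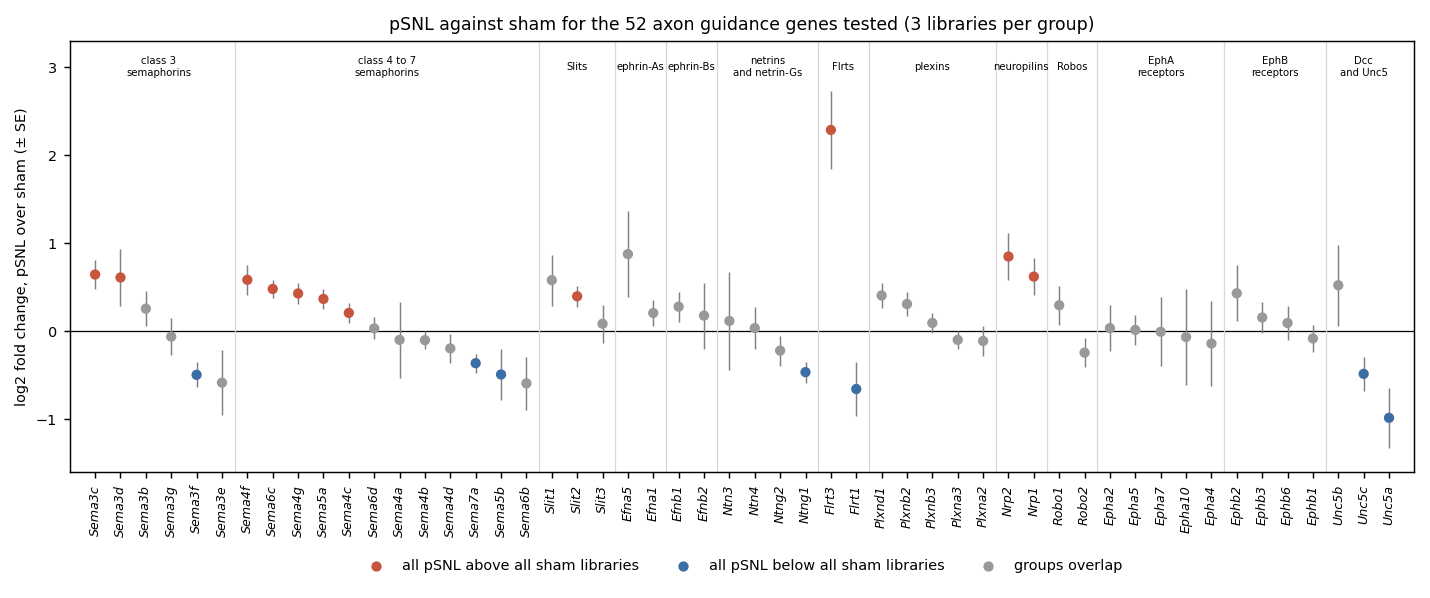
Log2 fold change of pSNL over sham for the 52 tested axon guidance genes, by family, with bars of ± 1 SE from edgeR's quasi-likelihood fit. Flrt3 stands out at 2.29 ± 0.45 and Unc5a is the lowest at -0.98 ± 0.34, and none of the genes passed the adjusted threshold.

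Flrt3 (gene ID 366205), which encodes a leucine-rich repeat membrane protein that binds Unc5 receptors and latrophilins, was at 8.48, 13.3 and 10.6 CPM in sham replicates 1 to 3 and at 29.1, 84.6 and 44.7 CPM in pSNL replicates 1 to 3. Every pSNL library was above every sham library, and the pSNL libraries differed widely among themselves. The means were 10.8 ± 2.42 CPM and 52.8 ± 28.6 CPM (SD, n = 3 each), a log2 fold change of 2.29 ± 0.45 (SE; edgeR quasi-likelihood adjusted p = 0.0976). In the alternatives the adjusted p of Flrt3 ranged from 2.96e-09 in DESeq2 to 0.294, and without pSNL replicate 1 edgeR called it (adjusted p = 0.0148), in a fit that called 1.92% of all genes. Among the pSNL libraries replicate 2 was highest and replicate 1 lowest, an order shared by 5 of the 6 injury genes used as a check. Sprr1a, at 6.81, 13.2 and 14.9 CPM, did not share it. The order was not particular to injury genes, since the fibroblast and epineurium markers described below summed to 6329, 8738 and 6810 CPM. The share of all genes with this order was not counted. Npy was at 101, 241 and 223 CPM, and Gap43, a protein of growing axons, at 436, 684 and 572 CPM in pSNL replicates 1 to 3.

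Flrt3 held 69.53% to 73.02% of the summed Flrt FPKM in the sham libraries and 88.23% to 95.28% in the pSNL libraries. Flrt1 was low, with 6.503 ± 0.88 CPM for sham and 4.12 ± 1.18 CPM for pSNL (log2 fold change -0.65 ± 0.31, edgeR adjusted p = 0.347), and its groups did not overlap. Flrt2 was at 1.07 ± 0.27 and 1.68 ± 0.59 CPM and was not tested. In the RefSeq table Flrt3 lies within the span of Macrod2, which was not analysed here, and Flrt1 overlaps Macrod1, which was at 11.9 to 15.9 CPM in sham and 7.49 to 11.7 CPM in pSNL. The use of strand in counting is not given in the sources, so reads of overlapping genes may not be told apart.

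**Figure D3:**
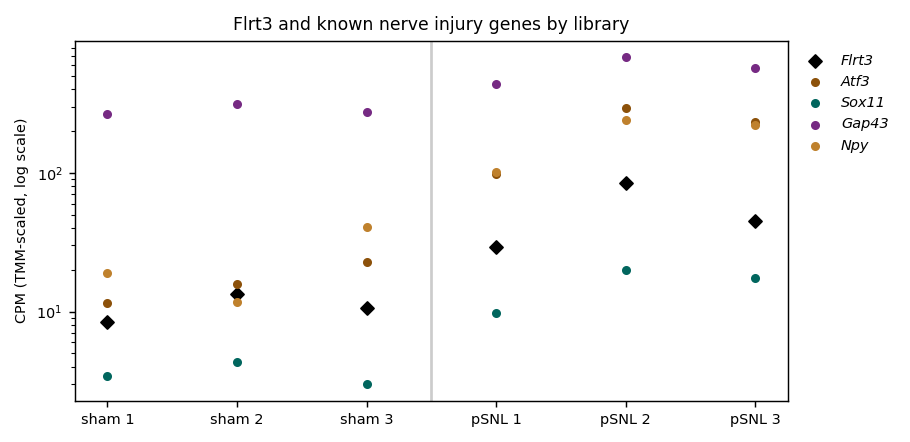
Flrt3 beside the injury genes Atf3, Sox11, Gap43 and Npy in the 6 libraries, in CPM on a log axis, with 1 point per library. Flrt3 runs from 8.48 to 13.3 CPM in sham and from 29.1 to 84.6 CPM in pSNL, and its pSNL libraries stand in the same order as those of Atf3. The injury genes Gal and Sprr1a are not drawn, and Sprr1a does not share this order.

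The class 3 semaphorins are secreted, and most bind neuropilins. Sema3c (gene ID 296787), which can bind both neuropilins, was at 60.1, 51.9 and 45.7 CPM in sham and at 78.3, 102 and 66.5 CPM in pSNL. All 3 pSNL libraries were above all 3 sham libraries. The log2 fold change was 0.65 ± 0.17 (SE; edgeR quasi-likelihood adjusted p = 0.116, and 0.0255 to 0.329 over the alternatives, the lowest in DESeq2). Sema3f, which signals mainly through Nrp2, went the other way, with 47.4, 45.4 and 34.9 CPM in sham and 28.4, 31.4 and 30.96 CPM in pSNL. Its groups did not overlap either (log2 fold change -0.49 ± 0.14, edgeR adjusted p = 0.14).

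Sema3b, the most abundant of the 61 genes, was at 571, 577 and 382 CPM in sham and at 481, 634 and 715 CPM in pSNL. The groups overlapped, and the log2 fold change was 0.26 ± 0.20 (edgeR adjusted p = 0.584). Without the third replicate of both groups it was -0.04, so its sign rested on those libraries. Sema3g, at 119 ± 33.4 CPM in sham and 114 ± 15.04 in pSNL, differed by less than the spread between libraries. Sema3d was low, with 3.14 ± 0.53 CPM for sham and 4.81 ± 0.95 CPM for pSNL, with no overlap between groups, and Sema3e was at 4.82 ± 1.21 and 3.21 ± 1.17 CPM.

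The semaphorins of classes 4 to 7 are membrane-bound, and 7 of the 12 had groups that did not overlap (21.5% of all genes), 5 of them higher in pSNL (11.1% of all genes). Sema6c (gene ID 29744), a transmembrane semaphorin, had the smallest p of the 52 genes. It was at 46.5, 42.9 and 43.7 CPM in sham and at 57.7, 67.04 and 61.2 CPM in pSNL, and its libraries lay close together within each group. The log2 fold change was 0.48 ± 0.10 (edgeR quasi-likelihood adjusted p = 0.0792, and 0.0587 to 0.267 over the alternatives).

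Sema4f, a transmembrane semaphorin of class 4, was at 123, 136 and 102 CPM in sham and at 144, 222 and 174 CPM in pSNL (log2 fold change 0.59 ± 0.17, edgeR adjusted p = 0.154, and 0.0226 to 0.406 over the alternatives). The lowest of these came from DESeq2, and edgeR without pSNL replicate 1 gave 0.0499, in a fit that called 1.92% of all genes. The lowest pSNL library of Sema4f, replicate 1, was just above its highest sham library. Sema4g was at 35.99, 39.02 and 34.7 CPM in sham and at 45.4, 55.02 and 47.5 CPM in pSNL (0.43 ± 0.12, edgeR adjusted p = 0.129). Sema5a, whose extracellular part carries thrombospondin repeats, was at 193, 177 and 153 CPM in sham and at 199.6, 223 and 253 CPM in pSNL (0.37 ± 0.12, edgeR adjusted p = 0.166). Both had all pSNL libraries above all sham libraries. Sema4c, a ligand of plexin-B receptors, was at 99.7 ± 14.2 and 115 ± 8.19 CPM, with its highest sham library at 109 CPM and its lowest pSNL library at 110.3 CPM.

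Sema7a, which is anchored by a lipid tail and also binds integrins, was at 251, 272 and 248 CPM in sham and at 234, 183 and 183 CPM in pSNL. Every pSNL library was below every sham library, with pSNL replicate 1 nearest to sham. The log2 fold change was -0.36 ± 0.11 (edgeR quasi-likelihood adjusted p = 0.152, and 0.0353 to 0.43 over the alternatives). Without pSNL replicate 1 the value was -0.48 and passed the threshold, in a fit that called 1.92% of all genes. Leaving out the pSNL library nearest to sham enlarges a difference by construction. As a share of the FPKM of classes 4 to 7, Sema7a was 37.16% to 39.11% in sham and 26.24% to 34.14% in pSNL. Sema5b was at 9.87 ± 0.24 CPM in sham, above all pSNL libraries (mean 7.02 ± 2.497 CPM). The remaining members of these classes (Sema4a, Sema4b, Sema4d, Sema6b and Sema6d) had groups that overlapped. For example, Sema4b was at 63.7 ± 4.59 and 59.5 ± 4.29 CPM and Sema6d at 88.5 ± 6.54 and 90.6 ± 13.8 CPM in the sham and pSNL groups.

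**Figure D4:**
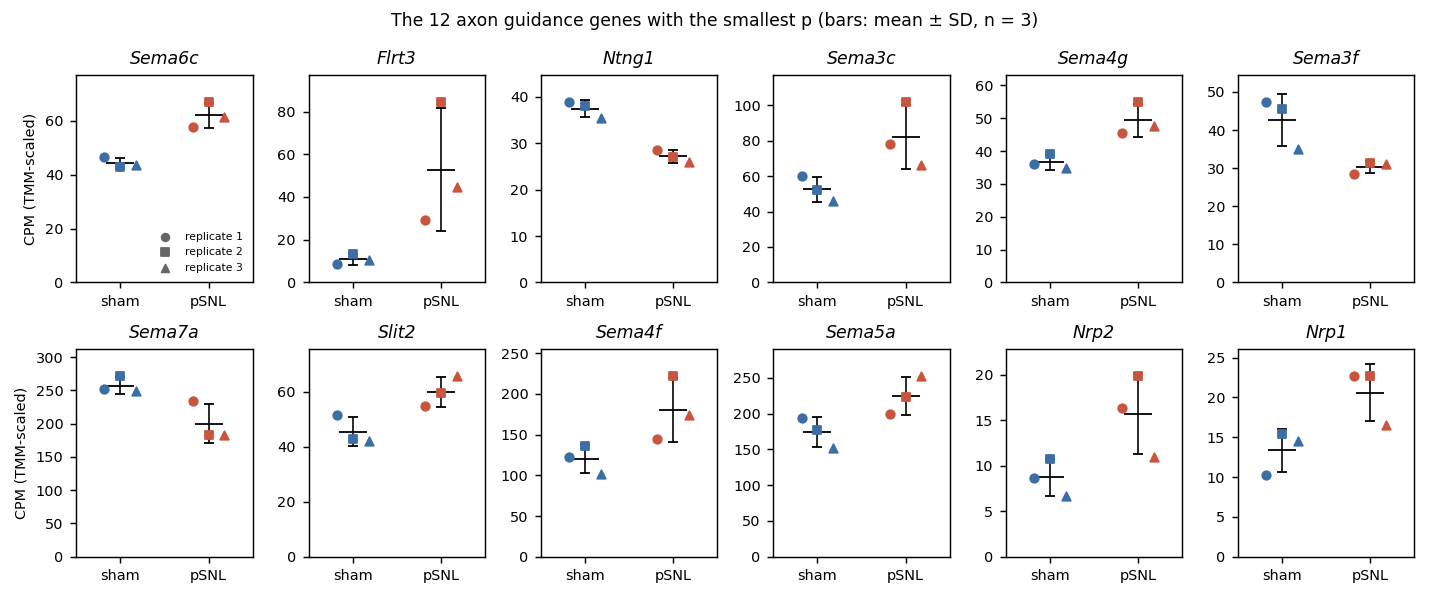
The 12 axon guidance genes with the smallest unadjusted p, in CPM, with points for single libraries (marker shape gives the replicate) and bars for the mean ± SD of 3 libraries. In all 12 panels the sham and pSNL libraries do not overlap, with Ntng1, Sema3f and Sema7a lower in pSNL and the other 9 higher.

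The neuropilins, which bind class 3 semaphorins and also VEGF, were low but higher in every pSNL library. Nrp1 was at 10.3, 15.4 and 14.5 CPM in sham and at 22.7, 22.7 and 16.5 CPM in pSNL. Nrp2 was at 8.71, 10.8 and 6.66 CPM in sham and at 16.3, 19.9 and 11.01 CPM in pSNL. The gap between the nearest libraries was small for both, and their log2 fold changes were 0.62 ± 0.21 and 0.85 ± 0.27 (edgeR quasi-likelihood adjusted p = 0.193 and 0.171). Together they summed to 5.17, 7.07 and 5.75 FPKM in sham and to 10.81, 11.68 and 7.41 FPKM in pSNL.

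The plexins are the signalling receptors of semaphorins, and the 5 plexins among the 61 genes had overlapping groups. Plxnd1, the receptor of Sema3e, was at 94.7, 97.3 and 79.7 CPM in sham and at 135, 129.7 and 95.6 CPM in pSNL (log2 fold change 0.41 ± 0.14, edgeR adjusted p = 0.208). Only pSNL replicate 3 lay within the sham range. Plxnb2, a receptor of class 4 semaphorins, was at 59.6 ± 5.57 and 73.97 ± 11.9 CPM (0.31 ± 0.13, edgeR adjusted p = 0.292). Plxna2, Plxna3 and Plxnb3 differed by less than the spread between libraries, at 86.1 ± 15.4 and 79.8 ± 15.7 CPM for Plxna2, 74.2 ± 5.72 and 69.4 ± 4.62 CPM for Plxna3, and 83.8 ± 8.45 and 89.5 ± 9.31 CPM for Plxnb3.

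Marker lists of the cell types of the ganglion were summed in the same libraries. Only 1 of their genes, the fibroblast marker Mgp, passed the threshold in edgeR (0.46% of all genes). The 10 fibroblast and epineurium markers summed to 5832, 4713 and 3577 CPM in sham replicates 1 to 3 and to 6329, 8738 and 6810 CPM in pSNL replicates 1 to 3. Of the 10, 9 were higher in every pSNL library (11.1% of all genes). The 14 macrophage markers summed to 193 to 256 CPM in sham and 334 to 561 CPM in pSNL, with 7 higher in every pSNL library (11.1% of all genes). Schwann cell markers summed to 18626 to 21876 CPM in sham and 21005 to 32639 CPM in pSNL, overlapping between the groups and highest in pSNL replicate 3. The highest sham sum was that of sham replicate 3 and rests partly on Mbp, at 3515, 3242 and 9933 CPM in sham replicates 1 to 3. Whether the groups would overlap without Mbp was not tested. The 12 markers of endothelium and mural cells summed to 300.28 to 391 CPM in sham and 333 to 349 CPM in pSNL. None of them had an unadjusted p under 0.05 in edgeR (15.5% of all genes). The 8 satellite glia markers summed to 6606, 7042 and 6875 CPM in sham and 5459, 5272 and 6374 CPM in pSNL, lower in each pSNL library, although only Fabp7 was lower in every one as a single gene and Cdh19 was higher. Apoe, whose groups overlapped, made up most of each of these sums. Glul was at 442, 425 and 949 CPM and Gja1 at 40.1, 50.5 and 239 CPM in sham replicates 1 to 3. Slc1a3 was also far higher in sham replicate 3 than in the other sham libraries. The sum of sham replicate 3 thus rests partly on that library's high Glul, Gja1 and Slc1a3. Whether the sum would be lower in each pSNL library without these genes was not tested. The 11 sensory neuron markers summed to 35542, 36251 and 28623 CPM in sham and 30523, 26813 and 28114 CPM in pSNL, with overlap, and their median log2 fold change was -0.22. Nefh and Nefl made up most of each sum, and Nefl was the only gene of this list lower in every pSNL library. The part of these cells in the differences of the axon guidance genes was not tested.

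Slits are secreted and bind Robo receptors. Slit2 was at 51.6, 42.9 and 42.3 CPM in sham and at 54.9, 59.6 and 65.8 CPM in pSNL, with no overlap (log2 fold change 0.40 ± 0.12, edgeR quasi-likelihood adjusted p = 0.153). Slit1, the highest Slit per length at 12.7 FPKM, was at 56.6, 56.2 and 41.4 CPM in sham and at 82.2, 102 and 47.02 CPM in pSNL (0.58 ± 0.29, edgeR adjusted p = 0.406). Its pSNL replicate 3 lay within the sham range, while the other 2 pSNL libraries were well above it. Slit3 was at 15.7 ± 1.71 and 16.7 ± 4.45 CPM.

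Robo2 was the main Robo by level, with 78.63% to 90.52% of the Robo FPKM in each library. It was at 139, 153 and 115 CPM in sham and at 143, 98.5 and 102 CPM in pSNL, and the groups overlapped (log2 fold change -0.24 ± 0.16, edgeR adjusted p = 0.523). Robo1 was at 9.95 ± 2.08 and 12.2 ± 1.06 CPM. Robo3, a divergent Robo of commissural axons in the embryo, was under the filter with 3, 5 and 5 counts in sham and 15, 9 and 18 counts in pSNL, a ratio of mean CPM of 3.22. With no filter on low counts its edgeR adjusted p was 0.164.

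Netrin-G proteins are lipid-anchored relatives of netrins that bind netrin-G ligands rather than Dcc. Ntng1 (gene ID 295382) was at 38.97, 38.1 and 35.4 CPM in sham and at 28.6, 27.05 and 25.9 CPM in pSNL. The 2 groups were tight and well apart, with a log2 fold change of -0.46 ± 0.12 (edgeR quasi-likelihood adjusted p = 0.112, and 0.106 to 0.308 over the alternatives). Ntng2, which held 71.64% to 85.55% of the FPKM of the netrin family, was at 136, 111 and 106 CPM in sham and at 76.7, 106 and 122 CPM in pSNL, and the groups overlapped (-0.22 ± 0.17, edgeR adjusted p = 0.584). The secreted netrins were low, with Ntn1 at 0.77 ± 0.48 and 1.45 ± 0.86 CPM, Ntn3 at 5.28 ± 1.39 and 5.74 ± 4.003 CPM, and Ntn4 at 8.34 ± 0.87 and 8.56 ± 1.32 CPM.

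The Unc5 receptors mediate repulsion by netrins and also bind Flrt proteins. Unc5a was at 9.17, 8.95 and 19.1 CPM in sham and at 6.58, 7.40 and 4.82 CPM in pSNL (log2 fold change -0.98 ± 0.34, edgeR quasi-likelihood adjusted p = 0.209). Sham replicate 3 alone was far above the rest, and without it the value was -0.53. Unc5c was at 13.8, 13.1 and 16.1 CPM in sham and at 10.7, 9.48 and 10.6 CPM in pSNL (-0.48 ± 0.19, edgeR adjusted p = 0.264), and at -0.39 without that library. Unc5b was at 3.67, 3.21 and 7.12 CPM in sham and at 7.95, 9.25 and 2.98 CPM in pSNL, with pSNL replicate 3 the lowest of the 6 libraries. In FPKM, Unc5a made up 55.21% to 62.67% of the family in sham and 38.32% to 45.1% in pSNL.

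Ephrins and Eph receptors signal at cell contacts, with ephrin-As held by a lipid anchor and ephrin-Bs crossing the membrane. Efna1, the highest ephrin at 18.4 FPKM, was at 27.5, 22.7 and 25.7 CPM in sham and at 26.3, 28.7 and 32.8 CPM in pSNL (log2 fold change 0.21 ± 0.14, edgeR adjusted p = 0.52). Efna5 was at 2.29, 2.98 and 0.92 CPM in sham and at 4.31, 5.09 and 2.06 CPM in pSNL, about 4 to 22 counts a library (0.88 ± 0.49, edgeR adjusted p = 0.422). For both, the groups overlapped. Efnb1 was at 31.7 ± 5.96 and 38.5 ± 6.14 CPM and Efnb2 at 8.49 ± 2.19 and 9.62 ± 4.54 CPM. Efna2 and Efna4 stayed at or below 2.53 CPM in each library and were not tested.

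Among the Eph receptors, Ephb6, whose kinase domain is inactive, was the highest and held 47.18% to 60.73% of the EphB FPKM. It was at 65.3, 61.5 and 72.6 CPM in sham and at 82.4, 49.2 and 81.4 CPM in pSNL, so that the pSNL libraries lay on both sides of the sham libraries (log2 fold change 0.10 ± 0.19, edgeR adjusted p = 0.853). Ephb2 was at 5.96, 3.44 and 6.21 CPM in sham and at 6.13, 9.02 and 5.96 CPM in pSNL (0.43 ± 0.32, edgeR adjusted p = 0.552). Ephb1 and Ephb3 differed by less than the spread between libraries, at 35.3 ± 5.81 and 33.4 ± 4.37 CPM for Ephb1 and 15.5 ± 1.91 and 17.3 ± 1.90 CPM for Ephb3. The most abundant EphA receptor, Epha5, was at 18.5 ± 0.53 and 18.7 ± 3.09 CPM, and Epha2 at 8.11 ± 1.74 and 8.32 ± 1.55 CPM. The log2 fold changes of the 9 tested Eph receptors lay between -0.14 and 0.43. Epha3 had no sham count and 12 pSNL counts, at least 4.0-fold higher against a floor of 3 counts over the sham group, but it was listed in enough libraries only through pSNL and so had to differ.

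In some of these genes sham replicate 3, the library with the high central glia markers, stood apart from the other sham libraries. It was at least 1.5 times the higher of the other 2 sham libraries for 6 tested genes. Epha4 was at 2.75, 2.98 and 9.65 CPM in sham replicates 1 to 3, Sema4a at 10.1, 12.4 and 32.4 CPM, and Sema6b at 29.3, 32.1 and 61.4 CPM. The others were Unc5a, Unc5b and Epha10, and the untested Efnb3 had 9, 13 and 51 counts. Without that library the log2 fold change was 0.69 for Epha4 (from -0.14), 0.60 for Sema4a (from -0.10), 0.62 for Epha10 (from -0.06), 0.96 for Unc5b (from 0.52) and -0.18 for Sema6b (from -0.59). None of these passed the threshold in edgeR with or without it. Of the 52 tested genes 10 were highest and 14 lowest of the 6 libraries in sham replicate 3. The part of the central tissue markers in these values was not tested.

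**Figure D5:**
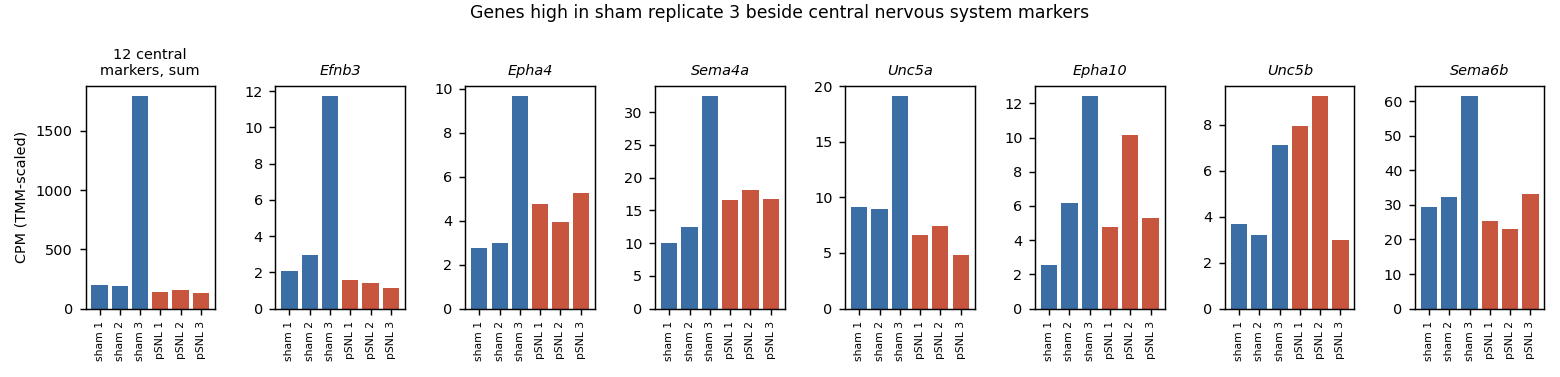
Summed CPM of the 12 central glia and spinal cord markers (left panel) and CPM of 7 axon guidance genes, with 1 bar per library and axes from 0. Sham replicate 3 is the highest library in every panel except that of Unc5b, where pSNL replicates 1 and 2, at 7.95 and 9.25 CPM, are above it.

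Genes that work with these ligands and receptors were described from 6 lists, none of which had a gene past the threshold in edgeR (0.46% of all genes). At an unadjusted p under 0.05 in edgeR (15.5% of all genes) there were 7 of 19 semaphorin and plexin partners, 5 of 21 Eph and ephrin partners, 5 of 13 Slit and Robo partners, 2 of 13 netrin-related genes, 4 of 19 cytoskeletal effectors and 7 of 13 growth inhibitors. Of the 19 tested partners of semaphorins and plexins, 5 were higher in every pSNL library (11.1% of all genes) and none lower (10.4%; median log2 fold change 0.22). The smallest p there was that of Crmp1, a collapsin response mediator, at 163 ± 6.07 CPM in the sham and 202 ± 14.2 CPM in the pSNL libraries (0.30 ± 0.09, edgeR adjusted p = 0.134). Its relative Dpysl3, picked out after its values were seen, was at 27.05, 26.6 and 21.1 CPM in sham and at 98.5, 122.5 and 34.4 CPM in pSNL. With all libraries Dpysl3, Mical3 of the same list and Srgap3, a Robo-linked GTPase activator, did not pass (edgeR adjusted p = 0.229, 0.274 and 0.381). In each, pSNL replicate 3 was the lowest pSNL library. Without that library all of them passed (edgeR adjusted p = 0.00192, 0.0184 and 0.0201, with a log2 fold change of 2.15 for Dpysl3). That fit also called more of all genes than the reported fit. Dpysl3, Mical3 and Srgap3 were picked after these results were seen, and leaving out a gene's lowest pSNL library raises its difference by construction. These passes are thus no support for a difference. Srgap3 was at 6.19, 5.97 and 2.99 CPM in sham and at 22.2, 30.5 and 2.98 CPM in pSNL.

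Of the 13 tested partners of Slits and Robos, 4 were higher in every pSNL library (11.1% of all genes) and none lower (10.4%; median log2 fold change 0.19), led by the tyrosine kinase Abl1 at 65.5 ± 4.83 and 94.2 ± 13.7 CPM (0.52 ± 0.12, edgeR adjusted p = 0.0861). Of the 21 partners of Ephs and ephrins, 3 were higher and 3 lower in every pSNL library, near those shares of all genes (median -0.04), and the scaffold gene Grip1 was at 15.8 ± 1.02 and 25.5 ± 4.08 CPM (0.69 ± 0.17, edgeR adjusted p = 0.0891). Of the 13 genes tested around netrins, Dcc and repulsive guidance molecules, 1 was higher and 3 lower (median -0.05), and Maged1, a partner of Unc5 receptors, was at 511 ± 8.80 and 638 ± 79.7 CPM (0.32 ± 0.10, edgeR adjusted p = 0.166).

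The 19 tested cytoskeletal effectors had 3 higher and 2 lower in every pSNL library, near the 11.1% and 10.4% of all genes (median log2 fold change 0.04). The cofilin kinases went opposite ways, Limk2 being at 33.2 ± 4.17 and 47.2 ± 2.16 CPM and Limk1 at 355 ± 34.7 and 279 ± 14.2 CPM (edgeR adjusted p = 0.101 and 0.116). Of the 13 tested genes for myelin and other inhibitors of axon growth, none was higher (11.1% of all genes) and 4 were lower (10.4%) in every pSNL library, with a median of -0.40. Lingo1, a co-receptor of myelin inhibitors, was at 106 ± 8.87 and 80.5 ± 4.35 CPM (-0.40 ± 0.10, edgeR adjusted p = 0.0967). Rtn4rl2, a Nogo receptor relative, was at 37.6 ± 7.17 and 24.5 ± 1.86 CPM (-0.62 ± 0.16, edgeR adjusted p = 0.111). Mag was at 58.9, 56.0 and 358 CPM in sham, so the list's sham level rests partly on sham replicate 3, where Bcan, which is also a central glia marker, was at 295 CPM against 171 and 173 CPM in the others.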

How the data were processed

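RNA from 3 sham and 3 pSNL libraries of rat DRG was used, grouped and numbered by the sample titles. Per the file headers, the authors deposited for each gene its expected count, its length and its FPKM. The authors' expected counts are estimates, of which 89.1% to 89.5% were whole, and FPKM as deposited by the authors is per gene length and library total. CASAVA 1.4 and Bowtie2 are named in the submitters' processing notes, while quantifier, build, annotation and use of strand are not given in the sources. Reads of near-identical genes may be split by the estimate, and 9 of the 61 genes had counts that were not whole. Genes missing from a library's list were set to 0. Gene IDs were matched to symbols in the RefSeq table of GRCr8 (14227 by gene ID, 11 by transcript, 108 unmatched), used for names and neighbours only.

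Expected counts were rounded and fitted over all genes with edgeR 4.0.16 in R 4.3.3 (TMM factors, default low-count filter, robust quasi-likelihood F test, Benjamini-Hochberg over 11091 genes, threshold 0.05). Standard errors were derived from the F statistic. CPM used TMM-scaled library sizes, and means are ± SD over 3 libraries. No library pair was alike within counting noise (mean chi-square per gene 2.97 to 14.6). With 3 libraries against 3, an exact permutation test cannot go below p = 0.1, so none was used. Alternatives were DESeq2 1.42.0, limma 3.58.1 on log2(FPKM + 1) and log2(FPKM + 0.1), other scalings and filters, a replicate block and leaving out libraries. The fit was tested on simulated data.

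The genes, the gene lists and the promoters shown were chosen with earlier results of these data known. Values in every library are given for the 12 genes with the smallest p and, in each family, the gene with the smallest p and the one with the highest FPKM. In each partner list the gene with the smallest p is named. Other genes named were chosen after their values were seen.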

Additional observations from a re-analysis of the deposited data

How the results depend on the processing

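The median log2 fold change of the axon guidance genes was 0.02 to 0.19 over the alternatives, 0.09 as reported. The number of all genes past the threshold, 51 as reported, was 334 in DESeq2, 89 with no filter on low counts, 111 with a replicate block (1.0% of those tested), 102 without the third replicate of both groups and 5 (without sham replicate 2) to 217 (without pSNL replicate 1) with 1 library left out. It was 21 without sham replicate 1, 33 without sham replicate 3, 9 without pSNL replicate 2 and 96 without pSNL replicate 3. Axon guidance genes past it were 3 in DESeq2, 1 with the block (Flrt3, edgeR adjusted p = 0.00269) and 0 to 3 with 1 library left out, the 3 being Flrt3, Sema7a and Sema4f without pSNL replicate 1. The other fits called none of them. The correlations of the deviations of same-numbered libraries were 0.032, 0.011 and 0.123. They were not all over 0.1, and not every library correlated best with its own number, so the numbers were not taken to pair the samples. The third replicates had the highest of the 9 correlations, and both had high skeletal muscle markers.

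The 18 genes whose groups did not overlap became 20 to 31 with 1 library left out (38.5% to 59.6% of 52, the highest without pSNL replicate 3), against 28.3% to 35.6% of all tested genes, where fewer libraries make an overlap less likely by construction. Among the partner lists, DESeq2 called 3 partners of semaphorins and plexins (Itgb1, Dpysl3 and Mical3), 1 of Slits and Robos (Abl1), 1 cytoskeletal effector (Limk1) and 1 growth inhibitor (Bcan). Without the third replicate of both groups edgeR called 2, 1 and 1 genes for the semaphorin, Slit and netrin lists, and with 1 library left out 0 to 2, 0 to 1 and 0 to 1 (all without pSNL replicate 3, plus Gpc1 without pSNL replicate 1). The causes were not tested.

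Of the 52 tested genes, 35 kept the sign of their fold change in every one of the 15 alternatives and 17 did not. Among the 33 genes whose fold changes were followed one by one, 28 kept it. Sema4a, Epha10 and Epha4, as reported at -0.10, -0.06 and -0.14, turned positive. Sema4a was at 0.063 with limma on log2(FPKM + 1), 0.10 on log2(FPKM + 0.1), 0.046 with the replicate block, 0.62 without the third replicates and -0.39 to 0.60 with 1 library left out. In the same order Epha10 was at 0.029, 0.12, 0.045, 0.77 and -0.49 to 0.62. Epha4 was at 0.073 on log2(FPKM + 0.1), 0.005 with the block, 0.60 without the third replicates and -0.44 to 0.69 with 1 library left out. Ephb6 was at -0.02 to 0.30 with 1 library left out, and Sema3b at -0.044 without the third replicates. At about 4.36 counts per CPM, a gene at a few CPM rests on few counts.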
